A study of Mus musculus with 25 samples.

Results

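The cytochrome P450 genes on the MG-U74Av2 array were followed through the first 4 days of calorie restriction in mouse lung. The members were the probe sets annotated with a single gene symbol that starts with Cyp and a digit, with Cyp51 left out. The gene family, and Cyp1a1 on day 3, were chosen for description with earlier results of these data known. Within the family the rule used names only. It gave 46 probe sets for 39 genes, out of 10833 probe sets for 8251 genes with a single symbol on the array. Of these, 18 probe sets for 18 genes were bright enough to be tested, meaning that the probe set reached the array's own median signal on at least 2 of the 24 arrays. The other 28 probe sets stayed dim, with a highest signal of 376 on any array, and 21 of the 39 genes were represented by such probe sets alone. Of all 12422 probe sets other than controls, 7440 (59.9%) were tested.

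Whole lung of C57BL/6 mice was hybridised in 11 groups, with 1 array per sample. Calorie-restricted (CR) mice had their food cut by 2/3 and were killed 2, 4, 12, 24, 48, 72 or 96 h after the cut, with 2 arrays per time. Control mice, labelled as always fed, were killed at 0 h (4 arrays) or at 2, 4 and 12 h (2 arrays each). The control labels also carry the 2/3 wording, so the feeding of the controls is not fully certain from the labels. No genotype, sex or age was given. Arrays carry the letters a and b, and fed 0 h also the numbers 1 and 2. The labels do not say whether these are separate animals, so the p-values may measure technical spread only. The late times (24 to 96 h) were set against fed 0 h, which has the same clock time by the labelled hours, and the early times against fed lung of the same hour. In bulk lung, fewer cells of a type and less RNA per cell cannot be told apart.

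P450 enzymes are heme proteins, most of them in the endoplasmic reticulum, that insert an oxygen atom into their substrate with electrons from P450 oxidoreductase. Family 1 is the best known target of the aryl hydrocarbon receptor (AhR), a ligand-activated transcription factor, and families 2 and 3 handle many drugs and toxicants. Family 4 hydroxylates fatty acids, and the higher families make or degrade steroids, bile acids, retinoids and vitamin D. In rodent lung, club cells of the airways are rich in Cyp2f2, Cyp2b10 and Cyp4b1, while Cyp1a1 is known from endothelium and is low unless induced.

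The arrays fell into a pair of signal ranges, and each range held arrays of both diets. The highest signal was 74440 to 99043 on 12 arrays, which were CR 2, 12, 24 and 48 h, fed 12 h and number 1 of fed 0 h. On the remaining 12, which were CR 4, 72 and 96 h, fed 2 and 4 h and number 2 of fed 0 h, it was 31595 to 54315. Fed 0 h, the control of every late comparison, therefore held both ranges, and its numbers 1 and 2 differed for 39.9% of all tested probe sets. Late differences were therefore also taken against each number. At 4 and 12 h fed and CR arrays shared a range. At 2 h the CR arrays were in the high range and the fed arrays in the low range. Diet and range thus cannot be told apart at 2 h, which is also a part of the mean early difference. The 3' to 5' signal ratio of Gapdh, a sign of RNA quality, was 1.76 to 2.02 at fed 0 h, 1.95 to 2.15 at CR 48 h and 1.01 to 1.66 on the other 18 arrays. The same ratio of actin was 1.87 to 2.31 at fed 0 h, 2.69 to 3.81 at CR 48 h and 1.24 to 2.77 on the other 18. Of the 7 lung markers on the array, Sftpc (22257 to 97698), Scgb1a1, Ager (21828 to 38230), Sftpb and Cdh5 read 3927 or more on every array, while Sftpd (67.8 to 232) and Pecam1 (108 to 473) were dim. Of the 33 liver markers, 25 were too dim to be tested, albumin (Alb, 27.7 to 281) among them, and the brightest was Rbp4 (707 to 1680), which other tissues also make.

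Promoters are shown for Cyp1a1, which stood apart at 72 h, for its relative Cyp1b1, for the AhR target Tiparp, and for Cyp2b10, the member with the clearest late rise. Each is the 250 bases before the annotated start, on the gene's own strand, from RefSeq on GRCm38.p6. Capitals mark GCGTG, the core of the AhR response element, or CACGC, the same core on the opposite strand, which share no base with each other here. The windows are chr9:57697363-57697612 (plus strand) for Cyp1a1, chr17:79715062-79715311 (minus strand) for Cyp1b1, chr3:65528197-65528446 (plus strand) for Tiparp and chr7:25897408-25897657 (plus strand) for Cyp2b10.
Cyp1a1: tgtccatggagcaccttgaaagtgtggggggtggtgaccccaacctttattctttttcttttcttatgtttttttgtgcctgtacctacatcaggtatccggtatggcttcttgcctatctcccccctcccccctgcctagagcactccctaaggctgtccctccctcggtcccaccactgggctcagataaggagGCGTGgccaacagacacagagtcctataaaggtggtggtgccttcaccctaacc
Cyp1b1: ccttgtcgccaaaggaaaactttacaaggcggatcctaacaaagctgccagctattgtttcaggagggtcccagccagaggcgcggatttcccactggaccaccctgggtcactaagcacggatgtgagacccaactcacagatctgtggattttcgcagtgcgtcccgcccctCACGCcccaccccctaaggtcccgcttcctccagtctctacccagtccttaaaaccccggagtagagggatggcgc
Tiparp: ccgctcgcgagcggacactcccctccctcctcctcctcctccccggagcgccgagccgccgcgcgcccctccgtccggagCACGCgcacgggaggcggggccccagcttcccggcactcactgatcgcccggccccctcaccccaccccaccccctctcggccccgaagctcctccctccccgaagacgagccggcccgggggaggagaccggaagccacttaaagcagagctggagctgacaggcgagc
Cyp2b10: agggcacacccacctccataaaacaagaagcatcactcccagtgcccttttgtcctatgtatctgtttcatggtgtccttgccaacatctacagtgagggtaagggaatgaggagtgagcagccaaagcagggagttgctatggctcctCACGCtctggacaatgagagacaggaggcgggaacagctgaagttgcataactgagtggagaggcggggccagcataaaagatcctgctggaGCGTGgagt

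The core began 54 bases before the start of Cyp1a1, 76 before that of Cyp1b1, 170 before that of Tiparp, and 101 and 9 before that of Cyp2b10. Either form of the core was in 9250 of 32851 promoters of the same length (28.2%). Of the 39 members, 31 had a promoter in the table and 4 of these held a core, namely Cyp1a1, Cyp1b1, Cyp2b10 and Cyp4v3. A match to 5 letters is a description and not a site.

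Cyp1a1, the AhR-induced oxidase of polycyclic aromatic hydrocarbons, was brighter at CR 72 h than on any other array. Its scaled signal at CR 72 h was 6069 and 3480, and it ranged from 210 to 1713 on the other 22 arrays. At fed 0 h it was 1480 and 1435 in number 1 and 625 and 866 in number 2. These are probe set signals scaled to a common array median, so they compare arrays and not genes. Both CR 72 h arrays lay above all 4 fed 0 h arrays without overlap.

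The other late times lay at the opposite end. Cyp1a1 was 589 and 663 at CR 24 h, 424 and 210 at CR 48 h, and 486 and 592 at CR 96 h. All 4 arrays of CR 48 and 96 h, and 1 of the 2 at CR 24 h, fell below the lowest fed 0 h array. The early CR signals were 1602 and 1713 at 2 h, 1147 and 1184 at 4 h, and 1410 and 1416 at 12 h. The fed signals at the same hours were 1459 and 1246, 1022 and 1140, and 1072 and 786. The early CR arrays thus lay above the fed arrays of their own hour at each of the 3 times. None of these differences, nor the mean early difference, had an unadjusted p under 0.05 (limma). The share of all tested probe sets with such a separation of 2 arrays from 2 is not given here. At 2 h the diets also differed in signal range.

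**Figure D1:**
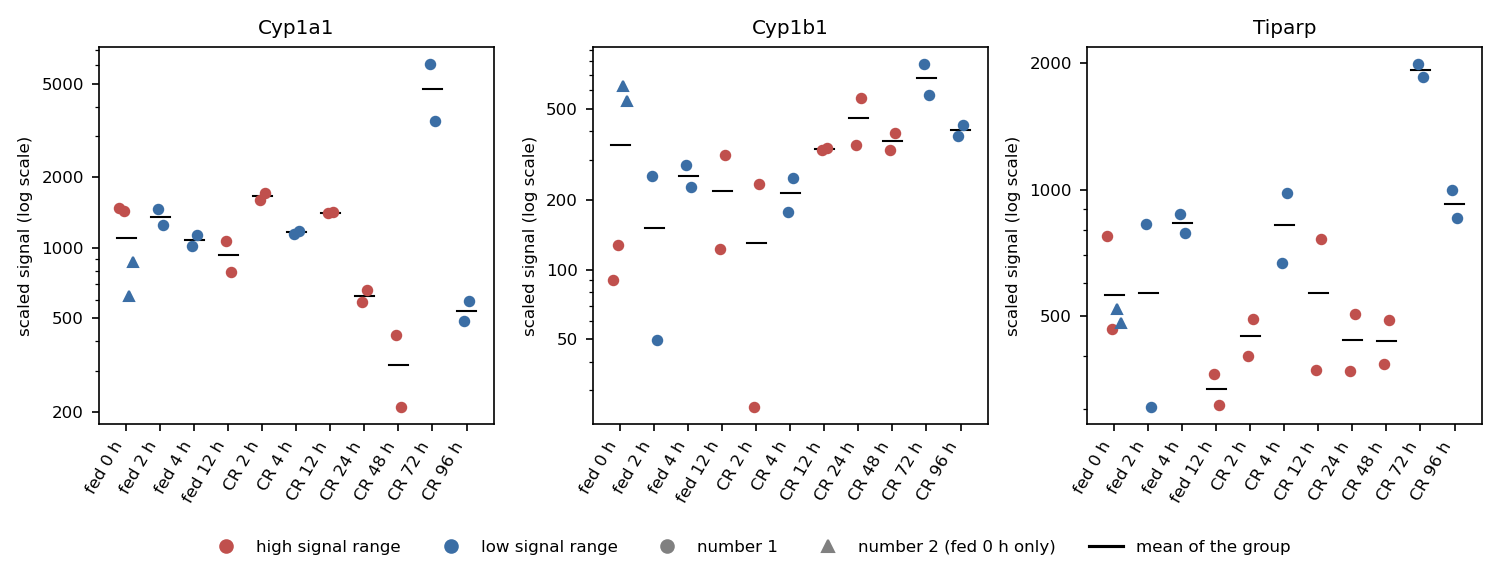
Scaled signal (log axis) of Cyp1a1, Cyp1b1 and Tiparp on each of the 24 arrays, in the 11 diet and time groups. Points are arrays, colours the signal range, triangles fed 0 h number 2 and bars group means. Cyp1a1 at CR 72 h (6069 and 3480) and Tiparp at CR 72 h (1992 and 1856) lie above the other 22 arrays.

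Against fed 0 h, Cyp1a1 at CR 72 h was 4.44-fold higher (95% CI 2.80 to 7.02, log2 2.15 ± 0.32 SE, limma adjusted p = 0.000371). Among the 18 tested members it alone was called at 72 h (adjusted p under 0.05), where 5.82% of all tested probe sets were called. CR 72 h and fed 0 h number 2 have the same signal range, and between them the rise was 6.25-fold (4.20 to 9.28), where 5.75% of all tested probe sets and no other member were called. Against number 1 the rise was 3.15-fold (2.12 to 4.69). The call at 72 h was lost when only the arrays of CR 72 h and fed 0 h were fitted (limma adjusted p = 0.141) and when letters were averaged (0.210).

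Within the late times, CR 72 h exceeded the mean of CR 24, 48 and 96 h by 9.90-fold (95% CI 6.42 to 15.3, log2 3.31 ± 0.30 SE, limma adjusted p = 9.47e-06). Cyp1a1 was 1 of 2 probe sets called in that comparison among 7440 (0.0269%), the other being the zinc finger gene Zfp787. The question of day 3 was posed with these data known. The tests of Cyp1a1 at 72 h, against fed 0 h and among the late times, are therefore descriptions only. CR 72 and 96 h share a signal range, and between them Cyp1a1 differed 8.56-fold (5.76 to 12.7, limma adjusted p = 4.00e-06), again with 0.0269% of all tested probe sets called. A test across the 4 late times called Cyp1a1 (limma F test, adjusted p = 8.94e-05) and no other tested member, with 0.578% of all tested probe sets called.

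At CR 48 h Cyp1a1 fell 3.48-fold against fed 0 h (95% CI 2.20 to 5.50, log2 -1.80 ± 0.32 SE, limma adjusted p = 0.00275). This call was lost without CR 48 h array 1b (log2 -1.29, adjusted p = 0.0952) and when only the arrays of CR 48 h and fed 0 h were fitted (0.331). The part of the high actin 3' to 5' ratio at CR 48 h (2.69 to 3.81) in the calls at that time was not tested. The log2 differences at 24 and 96 h were -0.73 and -0.95 (limma adjusted p = 0.0773 at 96 h), and neither passed. The late mean of Cyp1a1 (-0.33, limma adjusted p = 0.305) averaged times of opposite sign. Its value was -0.82 against fed 0 h number 1 and 0.16 against number 2, and the numbers differed from each other by 0.99 (limma adjusted p = 0.00738).

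A second Cyp1a1 probe set was too dim to be tested (25 to 271 over the 24 arrays) and read 86 and 34 at CR 72 h. The 72 h rise thus rests on the brighter probe set. The Gapdh 3' to 5' ratio at CR 72 h was 1.21 to 1.38. The summed signal of the club cell defining markers on the array (Scgb1a1 and Reg3g) was 28925 to 37271 at CR 72 h. At fed 0 h it was 68538 to 77194 in number 1 and 43645 to 48894 in number 2, which shares the signal range of CR 72 h. In that same range it was 41900 to 42370 at fed 2 h and 34663 to 35383 at fed 4 h. The part of these markers and of the signal range in the result was not tested.

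Cyp1b1, an extrahepatic AhR target that also oxidises steroids, differed mainly between the numbers of fed 0 h. Its signal was 89.9 and 128 in number 1 and 628 and 538 in number 2. It was 779 and 573 at CR 72 h, 349 and 558 at 24 h, 330 and 393 at 48 h, and 381 and 422 at 96 h. The highest of the 24 arrays was a CR 72 h array, while the other CR 72 h array lay inside the range of number 2.

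On the log2 scale, Cyp1b1 number 1 was lower than number 2 by 2.44 (limma adjusted p = 0.00107), and the late difference changed sign between them. CR 72 h minus fed 0 h was 1.42 ± 0.67 SE (limma adjusted p = 0.203). The late mean was 2.08 against number 1 (limma adjusted p = 0.000347) and -0.36 against number 2 (0.661). Cyp1a2, the liver member of the family, was too dim to be tested (23 to 103).

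Of 23 AhR pathway genes listed beside the P450s, 16 were on the array and 9 were tested. At CR 72 h, 3 of the 9 rose against fed 0 h and none fell, beside 5.82% of all tested probe sets called, with a median log2 difference of 0.36 against 0.03 over all tested probe sets. Tiparp, an AhR-induced ADP-ribosyltransferase that restrains the receptor, was 775, 464, 519 and 480 at fed 0 h and 1992 and 1856 at CR 72 h. It ranged from 303 to 996 on the other 22 arrays, so CR 72 h did not overlap them.

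Tiparp rose by log2 1.81 at CR 72 h (limma adjusted p = 0.00345) and by 1.95 against number 2. The call was lost without either CR 72 h array (adjusted p = 0.0595 and 0.0654), when only the arrays of CR 72 h and fed 0 h were fitted (0.0671), and when letters were averaged (0.397). Xdh, xanthine dehydrogenase, rose by log2 2.12 and Nfe2l2, the antioxidant regulator Nrf2, by 0.59. Both also rose in fed lung at 12 h against fed 0 h (Xdh 1.23, limma adjusted p = 0.0398, and Nfe2l2 0.61, 0.0303), while Tiparp stood at -0.71 there (0.283). Xdh was also called in the late mean (1.94), as were Nfe2l2 (0.38) and the aldehyde dehydrogenase Aldh3a1 (0.51), which makes 3 of 9 up and none down there, beside 18.1% of all tested probe sets called. Against number 2 the late mean called Xdh and Inmt, beside 7.76% of all tested probe sets. The receptor gene Ahr differed by 0.29 at CR 72 h (limma adjusted p = 0.472). Aldh3a1 and the glutathione transferase Gsta2 were also among the 6 listed genes not called at CR 72 h. There Aldh3a1 read 1826 and 2159, against 1064 and 1251 in fed 0 h number 1 and 1889 and 2284 in number 2. Gsta2 read 967 and 969, against 731 and 871 in number 1 and 1410 and 1283 in number 2.

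In the mean of the 4 late times, 3 of the 18 tested members rose, namely Cyp2b10, Cyp2e1 and Cyp4b1, and none fell. Of all tested probe sets, 18.1% were called, 9.85% higher and 8.24% lower. The median log2 late difference was 0.22 over the tested members and -0.00495 over all tested probe sets. By class, 2 of 8 tested genes of families 2 and 3 rose, 1 of 5 of family 4, and none of 2 of family 1 or of 3 of families 5 and above. Against fed 2, 4 and 12 h, which share no array with fed 0 h, Cyp2b10 and Cyp4b1 were called higher among the 18, and 6.34% of all tested probe sets were called.

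Cyp2b10, the constitutive androstane receptor target that hydroxylates drugs and steroids, gave 6085, 4854, 10969 and 10661 at fed 0 h. The late signals were 15076 and 15219 at 24 h, 19551 and 14366 at 48 h, 12147 and 14848 at 72 h, and 15796 and 17447 at 96 h. All 8 late arrays lay above all 4 fed 0 h arrays. The share of all tested probe sets that separate in this way is not given, here or for the other members. The late rise was 2.01-fold (95% CI 1.56 to 2.59, log2 1.01 ± 0.17 SE, limma adjusted p = 0.000943), and the call was lost when letters were averaged (0.176). It was 2.84-fold (2.39 to 3.37) against number 1 and 1.43-fold (1.20 to 1.69) against number 2 (limma adjusted p = 0.0102), and log2 0.71 (0.00712) against the other fed hours.

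The signal of Cyp2b10 also varied through the first day. It was 7640 and 7236 at fed 2 h, 8967 and 7648 at fed 4 h, and 13046 and 13925 at fed 12 h. At the same hours of restriction it was 7303 and 7470, 7939 and 7669, and 19414 and 17695. Both CR 12 h arrays lay above both fed 12 h arrays, by log2 0.46 ± 0.28 SE (limma adjusted p = 0.999). Fed 12 h minus fed 0 h was 0.81 (limma adjusted p = 0.0887). At single late times Cyp2b10 was called at 24 h (0.98), 48 h (1.13) and 96 h (1.11), and at 72 h it was 0.81 (adjusted p = 0.0579).

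**Figure D2:**
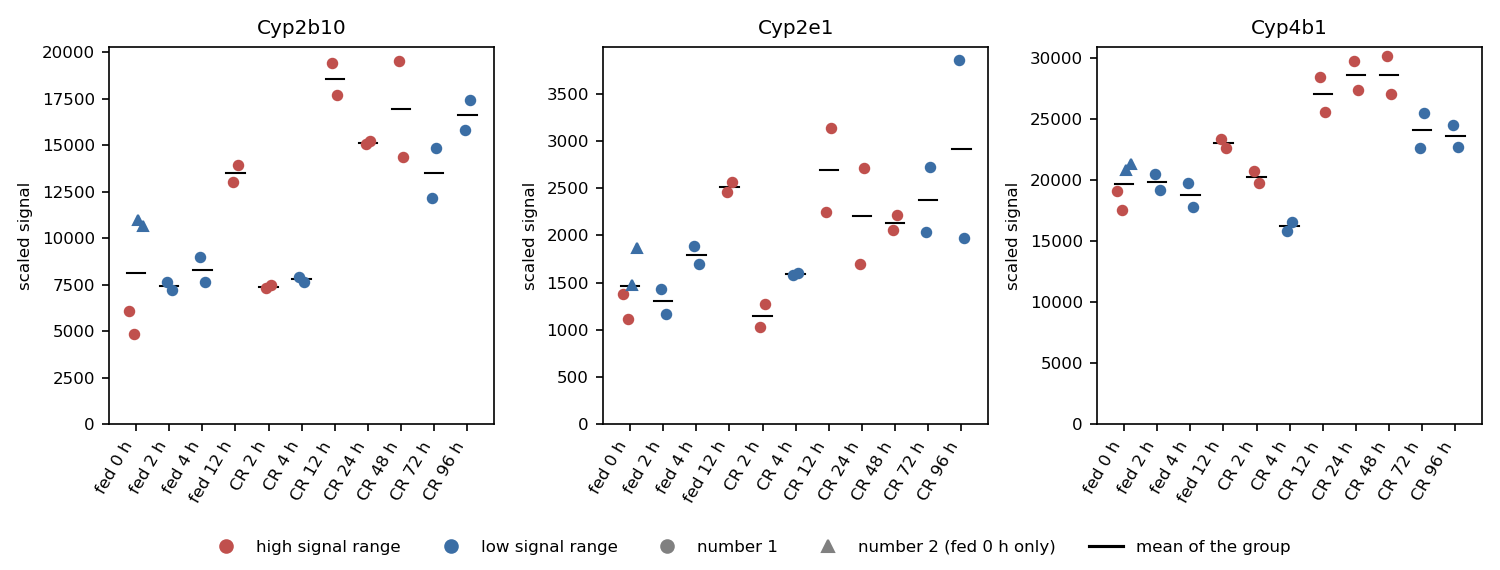
Scaled signal (linear axis from 0) of Cyp2b10, Cyp2e1 and Cyp4b1 on each of the 24 arrays, in the 11 groups. Points are arrays, colours the signal range, triangles fed 0 h number 2 and bars group means. All 8 late arrays of Cyp2b10 and Cyp4b1 lie above the 4 fed 0 h arrays, and those of Cyp2e1 overlap them.

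Cyp2e1, the ethanol-inducible oxidase of small molecules, gave 1382, 1113, 1479 and 1865 at fed 0 h. The late signals were 1698 and 2714 at 24 h, 2060 and 2214 at 48 h, 2039 and 2723 at 72 h, and 3856 and 1970 at 96 h. Of the 8 late arrays, 7 lay above the highest fed 0 h array. The early CR signals were 1031 and 1272 at 2 h, 1581 and 1598 at 4 h, and 2249 and 3144 at 12 h, and the fed signals at those hours were 1435 and 1172, 1884 and 1693, and 2465 and 2566.

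The late rise of Cyp2e1 was 1.63-fold (95% CI 1.25 to 2.11, log2 0.70 ± 0.18 SE, limma adjusted p = 0.0127). It was 0.91 against number 1 and 0.49 against number 2 (limma adjusted p = 0.170), and 0.38 against fed 2, 4 and 12 h (0.177). Among single times it was called at 96 h (0.94, limma adjusted p = 0.0338), where the 2 arrays were the farthest apart of the late pairs. The late call was lost without fed 0 h array 1b (adjusted p = 0.0683). Fed 12 h minus fed 0 h was 0.81 (limma adjusted p = 0.102), so the fed lung at 12 h read higher than at 0 h by more than the late mean did, without passing the test.

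Cyp2f2, the club cell enzyme that activates naphthalene, was among the brightest members and was not called in the late mean. Its signal was 15374 and 11208 in fed 0 h number 1 and 27542 and 28063 in number 2. The late signals were 22739 and 26116 at 24 h, 23897 and 19832 at 48 h, 19076 and 23668 at 72 h, and 20707 and 21841 at 96 h. Every late array lay between the numbers of fed 0 h, above number 1 and below number 2.

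The early CR signals of Cyp2f2 were 20047 and 18589 at 2 h, 17122 and 17935 at 4 h, and 28727 and 21856 at 12 h. Fed lung read 19771 and 15457, 18417 and 17587, and 23410 and 19585 at those hours, so diets overlapped at each of the 3 times. The late mean was 0.21 (limma adjusted p = 0.453), with 0.75 against number 1 (0.000145) and -0.33 against number 2 (0.158). The numbers differed by -1.08 (limma adjusted p = 7.68e-05).

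Cyp2s1, a dioxin-inducible enzyme of epithelia, had the same arrangement. It was 1230 and 1381 in fed 0 h number 1 and 3131 and 2815 in number 2. The late signals were 2192 and 2655, 3354 and 1984, 2412 and 2173, and 1882 and 2094 in order of time, and only 1 of the 8 exceeded number 2. Early, CR gave 1641 and 1733 at 2 h, 2084 and 1986 at 4 h and 2322 and 2135 at 12 h, against fed signals of 1652 and 1532, 1722 and 1857, and 2327 and 2265. The late mean was 0.23 (limma adjusted p = 0.448), with 0.82 against number 1 and -0.36 against number 2.

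The count of members called late differed with the number of fed 0 h used as control, as did the share of all tested probe sets called. Number 1 minus number 2 was called for 6 of the 18 tested members, 1 higher (Cyp1a1) and 5 lower (Cyp2f2, Cyp2b10, Cyp4f13, Cyp2s1 and Cyp1b1), beside 39.9% of all tested probe sets. The late mean against number 1 called 8 members higher and Cyp1a1 lower, beside 49.4% of all tested probe sets. Against number 2 it called Cyp2b10 and Cyp4b1 higher, beside 7.76%. The club cell defining markers summed to 68538 to 77194 in number 1 and 43645 to 48894 in number 2, opposite in order to Cyp2f2. Over all groups this sum split by signal range, from 57052 (CR 12 h) upward in the high range and up to 48894 in the low range. The ranges were defined by the highest signal of each array, and Scgb1a1 (25647 to 75170) is among the brightest probe sets. The split is therefore not independent of how the ranges were defined, and no conclusion is drawn from it. The number and the signal range cannot be told apart at fed 0 h.

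**Figure D3:**
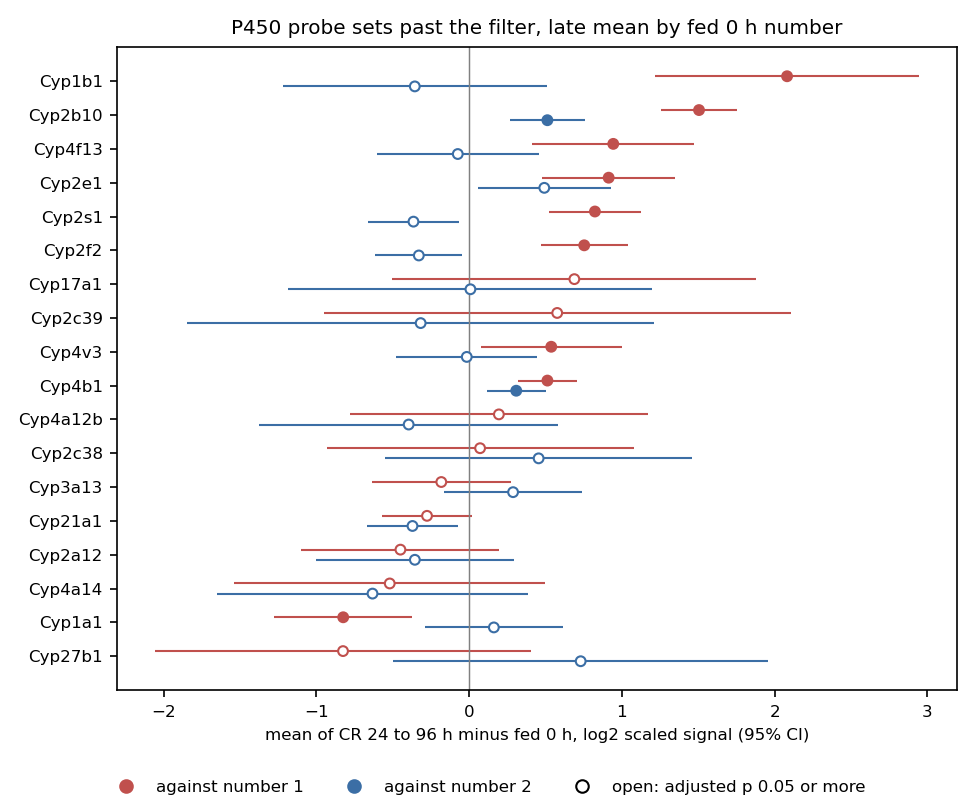
Log2 difference between the mean of CR 24 to 96 h and fed 0 h for the 18 tested members, against number 1 and against number 2, with 95% confidence intervals. Filled points have an adjusted p under 0.05. Cyp2b10 and Cyp4b1 are called higher against both numbers, while Cyp2f2 is 0.75 against number 1 and -0.33 against number 2.

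The remaining tested genes of families 2 and 3 were dimmer and none was called. Cyp2a12, a steroid hydroxylase known from liver, had its highest group mean at fed 0 h (396) and its lowest at fed 2 h (180). All 8 late arrays of Cyp2a12 lay below all 4 fed 0 h arrays, with a late mean of -0.40 (limma adjusted p = 0.246). Group means of Cyp2c38 ran from 224 (CR 12 h) to 532 (CR 24 h) and those of Cyp2c39, its neighbour in the arachidonic acid oxidising Cyp2c group, from 301 (fed 4 h) to 820 (fed 12 h). Cyp3a13 ran from 211 (CR 4 h) to 384 (CR 96 h). The Cyp2c38 probe set has a suffix (f_at) of probes that may match related genes.

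Too dim to be tested were the probe sets of Cyp2b9, Cyp2b13, Cyp2b19, Cyp2c29, Cyp2c70, Cyp2d9, Cyp2d10, Cyp2d26, Cyp2j5, Cyp2j6, Cyp3a11, Cyp3a16 and Cyp3a25. Many of these are known as liver or kidney enzymes. Over all members, 5 of the 28 dim probe sets stayed at or below the floor of 80.4 on all 24 arrays.

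Cyp4b1, a lung enzyme that activates aromatic amines and hydroxylates fatty acids, had the highest mean log2 signal of the members. It gave 19064, 17507, 20834 and 21256 at fed 0 h. The late signals were 29736 and 27351 at 24 h, 30151 and 27057 at 48 h, 22645 and 25493 at 72 h, and 24476 and 22691 at 96 h. All 8 late arrays lay above all 4 fed 0 h arrays, the 24 and 48 h arrays farthest.

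Early, Cyp4b1 read 20716 and 19760 at CR 2 h, 15789 and 16584 at CR 4 h, and 28408 and 25591 at CR 12 h. Fed lung read 20443 and 19200, 19728 and 17812, and 23379 and 22628 at the same hours. CR lay below fed without overlap at 4 h and above it without overlap at 12 h, and neither difference was called.

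The late rise of Cyp4b1 was 1.33-fold (95% CI 1.17 to 1.51, log2 0.41 ± 0.09 SE, limma adjusted p = 0.00492). It was 0.51 against number 1 and 0.31 against number 2 (limma adjusted p = 0.0451), and 0.35 (0.00922) against the other fed hours. Within the low signal range alone (CR 72 and 96 h minus number 2) it was 0.18 (limma adjusted p = 0.288), and within the high range (CR 24 and 48 h minus number 1) 0.64 (3.97e-05). Single times were called at 24 h (0.54) and 48 h (0.54). The probe set carries the suffix f_at, so related sequences may add to its signal.

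Of the other family 4 genes none was called in the late mean. Cyp4a12b and Cyp4a14, peroxisome proliferator target fatty acid hydroxylases, had group means from 169 (CR 2 h) to 544 (CR 4 h) and from 86 (CR 24 h) to 247 (fed 12 h). Cyp4f13, a leukotriene and fatty acid hydroxylase, ran from 212 (CR 12 h) to 509 (CR 48 h), and its fed 0 h numbers differed by -1.02. Cyp4v3, a fatty acid hydroxylase, ran from 1040 (fed 4 h) to 3113 (CR 4 h), a gap of log2 1.53 ± 0.32 SE at the same hour (limma adjusted p = 0.976). Cyp4a10 was too dim to be tested.

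Among families 5 and above, 3 of 9 genes were tested and none was called. Cyp17a1, the steroid hydroxylase and lyase of androgen synthesis, ran from 61.8 (fed 4 h) to 365 (CR 12 h). Cyp21a1, the steroid hydroxylase of the adrenal cortex, ran from 1023 (CR 4 h) to 1736 (fed 0 h). All 8 late arrays of Cyp21a1 lay below all 4 fed 0 h arrays, with a late mean of -0.32 (limma adjusted p = 0.0622), and its suffix s_at means shared sequence. Cyp27b1, which activates vitamin D, ran from 77.5 (fed 2 h) to 258 (CR 12 h). Cyp7a1, Cyp7b1 and Cyp8b1 of bile acid synthesis, Cyp11a1 of steroid synthesis, Cyp24a1 of vitamin D breakdown and Cyp26a1 of retinoic acid breakdown were too dim to be tested.

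Within the first 12 h none of the 18 tested members was called by limma. In the mean early difference 2 members (Cyp17a1 and Cyp2a12) had an unadjusted p under 0.05, as did 3.28% of all tested probe sets, and 0.0269% of all tested probe sets were called. At CR 2 h, 4 h and 12 h 1 member each had such an unadjusted p (Cyp2a12, Cyp4v3 and Cyp17a1), as did 6.34%, 1.75% and 5.50% of all tested probe sets. The shares of all tested probe sets called were 0%, 0% and 0.148%. Cyp17a1 reached the median signal on 2 arrays only, CR 12 h 1a (417) and CR 24 h 1a (403). Its unadjusted p at 12 h and in the early mean thus draws on an array that let it into the test. A second Cyp17a1 probe set was too dim to be tested (4.14 to 93.5). A limma F test for differences among the early times called 0% of all tested probe sets. With 2 arrays per group the data do not show that the early values were equal.

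Between fed hours none of the 18 was called either. Fed 12 h minus fed 0 h had 4 members with an unadjusted p under 0.05 in limma (Cyp4a12b, Cyp2b10, Cyp21a1 and Cyp2e1), beside 17.3% of all tested probe sets, and 1.92% of all tested probe sets were called. Fed 2 h and fed 4 h had 3 such members each, as did 820 and 938 of all 7440 tested probe sets, with 0.0806% and 0.309% called. Fed 12 h against number 1, which shares its signal range, called Cyp2f2, Cyp2b10, Cyp4b1, Cyp2s1 and Cyp2e1 higher, beside 31.0% of all tested probe sets. Against number 2 it called 0 members (limma), with 8.72% of all tested probe sets called. At an unadjusted p under 0.05 there were 7 members there, beside 24.0% of all tested probe sets.

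Single late times gave few member calls. At CR 24 h Cyp2b10 and Cyp4b1 rose, where 2.82% of all tested probe sets were called. At CR 48 h the same pair rose and Cyp1a1 fell, beside 5.44%. At CR 96 h Cyp2b10 and Cyp2e1 rose, beside 6.49%. Over the late mean, the early mean, the single times and the fed hours, 14 of the 18 tested members (77.8%) were never called, beside 79.1% of all tested probe sets.

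**Figure D4:**
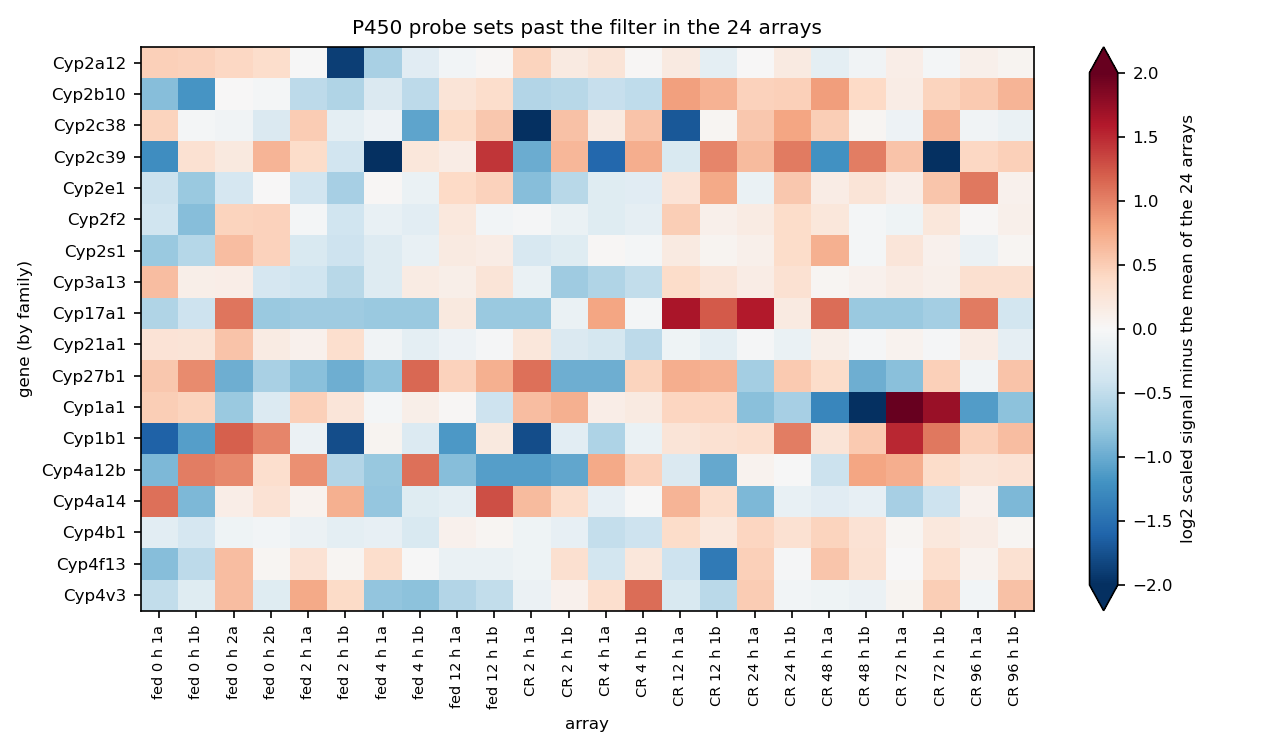
Log2 scaled signal of the 18 tested members minus each member's mean over the 24 arrays, one column per array, with colours ending at 2 above and below the mean. Cyp1a1 at CR 72 h is the strongest red of its row, and the rows of Cyp2c39, Cyp17a1 and Cyp27b1, which are dim, vary between arrays of 1 group.

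The partners and regulators of P450s were counted in the late mean by listed genes, where 18.1% of all tested probe sets were called, and again against number 2, where 7.76% were. Of 22 genes of electron transfer and heme, 18 were on the array and 17 tested. Cytochrome b5 reductase Cyb5r3 rose (0.55), and cytochrome b5 Cyb5a (-0.34) and the heme synthesis gene Uros (-0.63) fell, with a list median of -0.09. Against number 2 none of these 3 was called, and Fdx1 and Alas2 were called higher. Against number 1 the list had 4 up and 7 down, beside 49.4% of all tested probe sets called. Of 30 receptors and regulators, 27 were on the array and 14 tested, and Cebpb (0.997) and the retinoic acid receptor Rarg (1.52) rose, with none down and a median of 0.08. Against number 2 Cebpb alone was called. Nr1i3, the constitutive androstane receptor that controls Cyp2b10, was at -0.21 (limma adjusted p = 0.352).

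Of 51 other drug metabolism genes, 34 were on the array and 24 tested. In the late mean 5 were up and 5 down, with a median of -0.08, beside 18.1% of all tested probe sets called. Against number 2 it was 3 up and 1 down, beside 7.76% of all tested probe sets called. Against number 1 it was 6 up and 10 down, beside 49.4%. The sulfotransferase Sult1a1 rose by log2 1.62 and the aldehyde dehydrogenase Aldh2 by 0.58, while the alcohol dehydrogenase Adh7 fell by 0.52 and the glutathione transferase Mgst3 also by 0.52. Of 25 club cell markers, a list that includes Cyp2f2, 13 were on the array and 12 tested, 1 up (Selenbp1, 1.23) and 2 down (Reg3g, -0.50, and Hp, -0.37), and against number 2 it was 1 up (Selenbp1) and 1 down (Cckar). At CR 72 h the count was 1 up (Selenbp1) and 2 down (Scgb1a1, -0.82, and Reg3g, -0.76), beside 5.82% of all tested probe sets called. Against number 2, which shares the signal range of CR 72 h, Selenbp1 was called higher and none lower (Scgb1a1 -0.49, limma adjusted p = 0.0794, and Reg3g -0.53, 0.0979). In that comparison 5.75% of all tested probe sets were called. The part of these markers in the P450 values was not tested.

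Other cell types were counted in the late mean as well, beside the same 18.1%. Of 9 tested alveolar type II markers 2 rose and 1 fell, of 7 ciliated cell markers none rose and 2 fell, of 10 adipocyte markers 3 rose and 3 fell, of 8 liver markers 2 rose and 1 fell, and of 4 adrenal and steroidogenic markers 1 rose and none fell. Against number 2, 7.76% of all tested probe sets were called. There the counts were 1 up and 1 down for type II, 1 down for ciliated, 2 up and 2 down for adipocyte, none for liver and 1 up for adrenal markers. The 33 liver markers on the array summed to 4891 to 6439 at fed 0 h and 5332 to 5573 at CR 72 h, and 6 of them were at the floor on all 24 arrays. Of 6 tested lung markers 1 rose, and none was called against number 2.

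The probe sets whose 24 values followed a member most closely were found by Pearson's r, as a description over arrays that share signal range and diet. For Cyp1a1 they were Tnfaip2 (0.688), Dipk1b (0.684), Pdia6 (0.680), Rab11a (0.672) and Hebp1 (0.662). For Cyp2e1 they were P4ha2 (0.812), Smad6 (0.809), Cyp2b10 (0.802), Sf3b2 (0.793) and Usp2 (0.791). For Cyp2f2 they were Slc39a4 (0.859), Ift172 (0.850), Ogdh (0.847), Inpp5a (0.842) and Svil (0.842). The closest genes to Cyp1a1 thus had lower r than those of Cyp2e1 and Cyp2f2.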

How the data were processed

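Lung RNA was measured on 24 arrays. The authors deposited one table of probe set intensity on a linear scale, which was used as deposited. Its trimmed mean (2% cut at each end) was 800.4 to 800.5 on every array, and the software was not given in the sources used here. Arrays were scaled to a common median (factors 0.920 to 1.05), a floor was set at the 25th percentile of all signals (80.4), and log2 was taken. Arrays a and b of the same group and number correlated at r = 0.940 to 0.976, and number 1 with number 2 of fed 0 h at 0.854 to 0.871. Probe sets were named from the platform annotation of 2016, and 7 P450 probe sets with several symbols were left out. All 46 symbols matched RefSeq's on GRCm38.p6.

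Group means were fitted with limma 3.58.1 in R 4.3.3 (intensity trend, 13 residual degrees of freedom) over all 7440 tested probe sets. Benjamini-Hochberg adjustment covered all of them, two-sided, with a threshold of 0.05. Fed 0 h numbers 1 and 2 were separated in a second fit. The scripts were tested on simulated data. The letters a and b were checked as pairs: deviations correlated at a median r of 0.0141 over 66 pairs of groups, so they were not a block.

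Cyp1a1, Cyp2e1, each called member and the 5 members with the highest mean log2 signal have values per array. Other members have their extreme group means, and up to 4 genes of a list are named by smallest adjusted p, with further names chosen after their values were seen. Members and lists were chosen with earlier results of these data known. Alternatives covered scaling, floor, filter, control arrays and each array left out. A further array with conflicting labels has no group and was not used. The number of arrays limits the precision.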

Additional observations from a re-analysis of the deposited data

Results flagged for a closer look

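Cyp1a1 differed among the 4 late times of restriction by a test of that difference itself (limma F test, adjusted p = 8.94e-05), with a signal of 6069 and 3480 at 72 h and 210 to 663 at 24, 48 and 96 h. Cyp1a1 on day 3 was singled out with these data known, so the p-value is a description and no independent support.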

How the results depend on the processing

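Cyp1a1 at 72 h against the other late times kept its call and direction under all 38 alternatives (log2 2.91 to 3.97, limma adjusted p 8.20e-09 to 0.0354). These alternatives reuse the data from which the question was posed, so they give no independent support. None of the 9 single-gene differences recomputed under the alternatives turned its sign. The late means of Cyp1a1, Cyp1b1, Cyp2f2 and Cyp2s1, which were not among them, had opposite signs against numbers 1 and 2 of fed 0 h. The calls of the late mean were lost for Cyp2b10 in 1 of 42 alternatives, for Cyp4b1 in 4 and for Cyp2e1 in 7. The counts of tested members called moved more. The main counts were 3 in the late mean, 0 in the early mean, 0 at fed 12 h, 0 at CR 2, 4 and 12 h, and 2, 3, 1 and 2 at CR 24, 48, 72 and 96 h. With fed 0 h number 1 alone they were 9 late (beside 49.4% of all tested probe sets), 5 at fed 12 h (beside 31.0%) and 8 at each of CR 24, 48, 72 and 96 h. At CR 72 h against number 1, 9 members had an unadjusted p under 0.05 (limma), as did 48.2% of all tested probe sets. With number 2 alone the counts were 1 at CR 24 h and 1 at CR 96 h. With the high signal range alone 8 were called late. There 8 members had an unadjusted p under 0.05 (limma), as did 52.7% of all tested probe sets. With only the arrays compared the late count was 1, and CR 24, 48, 72 and 96 h gave 0 each. With letters averaged, the late mean and CR 72 h gave 0. Array weights gave 1 late, 1 at CR 4 h, 0 at CR 24 h, 2 at CR 72 h and 1 at CR 96 h. Quantile normalization gave 1 at CR 24 h and 2 at CR 72 h, and no intensity trend 1 at CR 24 h. Without the filter, fed 12 h, CR 12 h, CR 24 h and CR 96 h gave 1 each. With signal range as a block, chosen after seeing the data, counts were 5 late, 3 early, 5 at fed 12 h, 4 at CR 2 h, 8 at CR 24 h, 8 at CR 48 h and 1 at CR 96 h. Fed 0 h alone held both ranges, so this block rests on the difference between its numbers 1 and 2, applied to every group. For the other alternatives, also those with an array left out, the share of all tested probe sets called is not given here. Those counts are therefore no result about the members. The causes were not tested.

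Leaving out each array in turn gave 2 to 7 late (7 without fed 0 h array 2a), 0 to 1 early, 0 to 2 at fed 12 h, 0 to 1 at CR 2 h, 0 at CR 4 and 12 h, 0 to 3 at CR 24 h, and 1 to 3 at CR 48, 72 and 96 h. The letters as a replicate block changed no call: 3 members late, 0 early, 0 at fed 12 h, 2, 3, 1 and 2 at CR 24 to 96 h, and 3.31 for Cyp1a1 at 72 h against the other late times. With 2 arrays in most groups, small changes of dim members were not detectable.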
